A study of Zea mays with 12 samples.

Results

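In 55 of the 34423 genes listed in these maize libraries (0.16%), drought lowered the read level of young ears, ear leaves and kernels alike. A gene was taken when, in each of the 3 organs, the lower of the 2 control libraries held at least 5 CPM (its count over the library's summed count, times 1000000) and at least 1.5 times the CPM of the higher of the 2 drought libraries. The members were thus picked on drought against control itself, so the falls given here describe them and are not tested. The same rule turned round took 387 genes raised in all 3 organs.

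The libraries came from the maize inbred line B104, given in the labels as inbred line 104, with 2 libraries in each of 6 groups. Drought ears and control ears were upper ears at the V9 stage, when the ear is still forming spikelets. Drought ear leaves and control ear leaves, and drought kernels and control kernels, were taken 5 days after pollination (5DAP). Drought plants stood for several days in field plots held at a low soil water content, control plots were kept watered, and the study pooled organs of several plants in each sampled repeat. The ear therefore differs from the other organs in stage as well as in organ, and these cannot be told apart.

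Each library held between 3429314 (control ear leaf 2) and 5452687 (drought ear leaf 1) estimated counts, so that 1 count was worth 0.183 to 0.292 CPM. The 4 ear leaf markers of C4 photosynthesis summed to 8883 to 8943 CPM in drought ear leaves and 39929 to 40318 CPM in control ear leaves, and to 215 CPM or less in every ear and kernel library. The 4 ear meristem markers summed to 321 to 327 CPM in drought ears and to 380 CPM in both control ears, and reached 43.8 CPM in a control kernel. Of 3 kernel markers only fie1 had a value, and it was listed in kernel libraries alone. In whole organs, fewer cells of a type and less RNA per cell cannot be told apart, and this holds for every level below.

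Plants that run short of water slow their growth, close their stomata and lower photosynthesis, and dividing or expanding organs are known to respond early. Genes for DNA synthesis and mitosis are read mostly in dividing cells, whereas chloroplast genes are read mostly in green tissue. The rule asked for a gene that all 3 organs read above the floor and that all 3 lowered.

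The rule took the fewest genes in ears and the most in kernels. By the rule in a single organ, 1549 genes (4.5% of all genes) were lowered in ears, 2139 (6.21%) in ear leaves and 5489 (15.9%) in kernels. The pair of ear and kernel shared 840 of them (2.44% of all genes), of which the 55 members made up 6.55%. Ear leaf and kernel shared 473 (1.37%), of which the members made up 11.6%, while ear and ear leaf shared 91 (0.264%), of which they made up 60.4%. Those 91 genes were 5.87% of the ear list, near the 6.21% of all genes lowered in ear leaves, and 4.25% of the ear leaf list. The genes shared with kernels were 54.2% of the ear list and 22.1% of the ear leaf list, and 15.3% and 8.62% of the kernel list. Of the 785 genes lowered in ears and kernels but not in ear leaves, 524 lay below the control floor in ear leaves, 261 lay above it with too small a fall, and 46 of those 261 were raised there by the turned rule. Of the 418 genes lowered in ear leaves and kernels only, 114 missed the floor in ears and 304 missed the fold. The floor in all 3 organs was met by 12174 genes, and 0.452% of them were members.

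The median fall was smallest in ears, and the organ of the strongest fall varied between members. Taken as the lower control CPM over the higher drought CPM, the median fall was 1.81-fold in ears (1.51 to 7.23), 2.25-fold in ear leaves (1.5 to 241) and 2.87-fold in kernels (1.52 to 16.0). The ear was the organ of the weakest fall in 33 members, the ear leaf in 15 and the kernel in 7. The strongest fall was in kernels in 30 members, in ear leaves in 20 and in ears in 5. A fall of at least 2-fold was present in ears for 18 members, in ear leaves for 34, in kernels for 43 and in all 3 organs for 10. Only GRMZM2G160064 fell at least 3-fold in all 3.

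**Figure D1:**
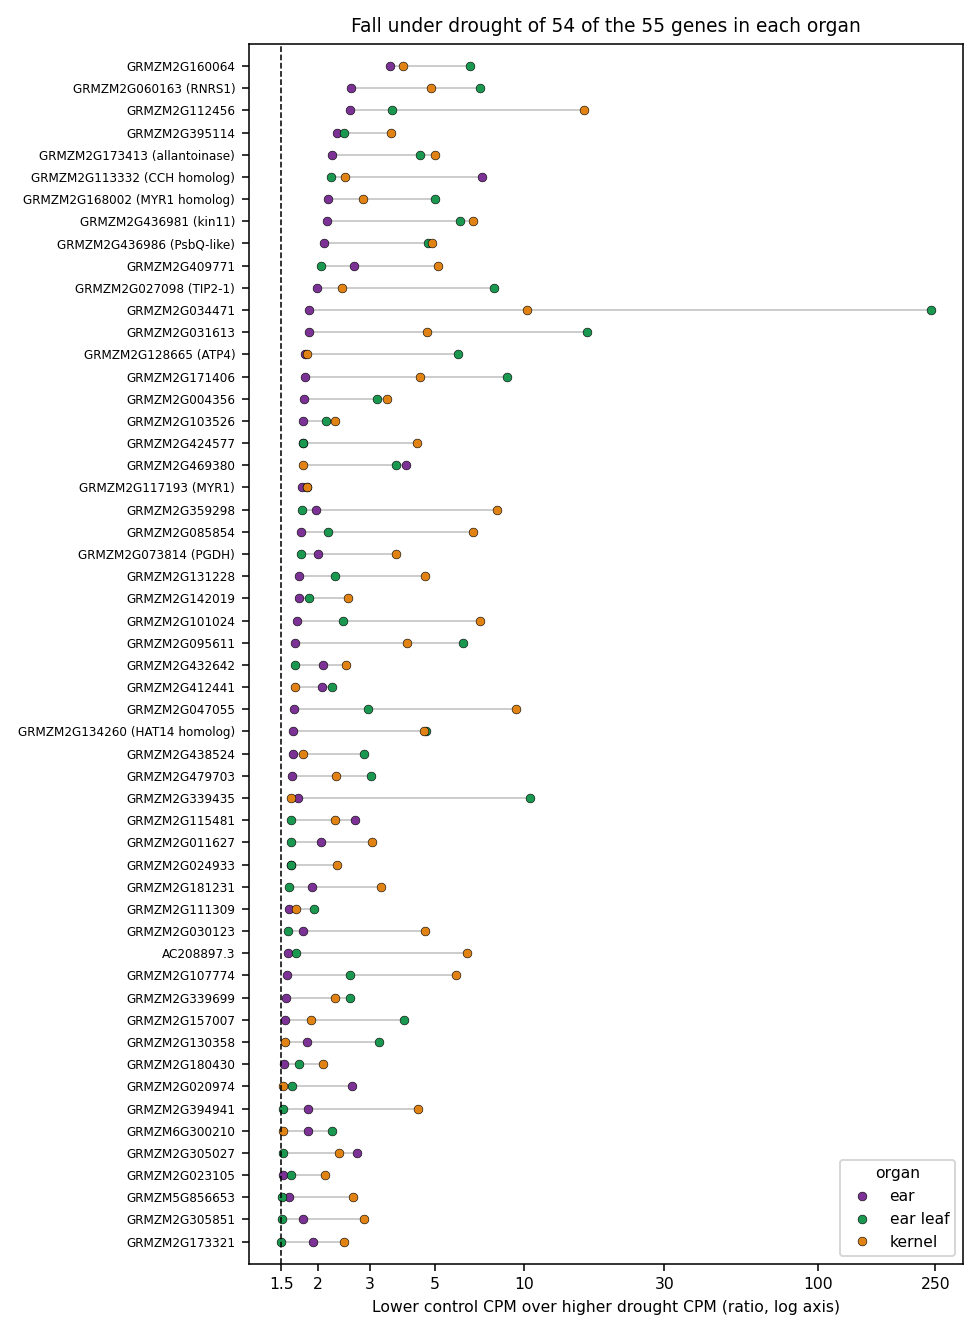
Fall under drought of 54 of the 55 members in ears, ear leaves and kernels, as the lower of 2 control CPM over the higher of 2 drought CPM, on a log axis, with genes ordered by their weakest fall and the dashed line at the 1.5-fold limit of the rule. Points can cover each other where 2 organs fell alike. The ear is the weakest organ in 33 of the 55 members, and GRMZM2G034471 in ear leaves stands far to the right at 241-fold.

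The members together made up a small part of the counted reads. They held 0.177% and 0.175% of the reads of the drought ear libraries against 0.400% and 0.407% of the control ear libraries, 0.160% and 0.164% in drought ear leaves against 0.489% and 0.488% in control ear leaves, and 0.108% and 0.110% in drought kernels against 0.347% and 0.321% in control kernels. Their median level was 13.6 CPM in drought ears against 30.1 CPM in control ears. In the ear leaf it was 13.2 CPM under drought against 37.6 CPM in controls, and in kernels 5.91 CPM under drought against 22.3 CPM in controls. The control levels ranged over 6.07 to 616 CPM in ears, 5.47 to 1057 CPM in ear leaves and 5.52 to 604 CPM in kernels. Between duplicate libraries, the median absolute log2 difference over the members ran from 0.08 in control ears to 0.23 in drought kernels. Single members differed by up to 1.17 in drought ears, 1.03 in drought ear leaves and 1.14 in drought kernels. The rule favoured genes with like duplicates, so these values describe the members and do not measure how close the libraries lay.

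**Figure D2:**
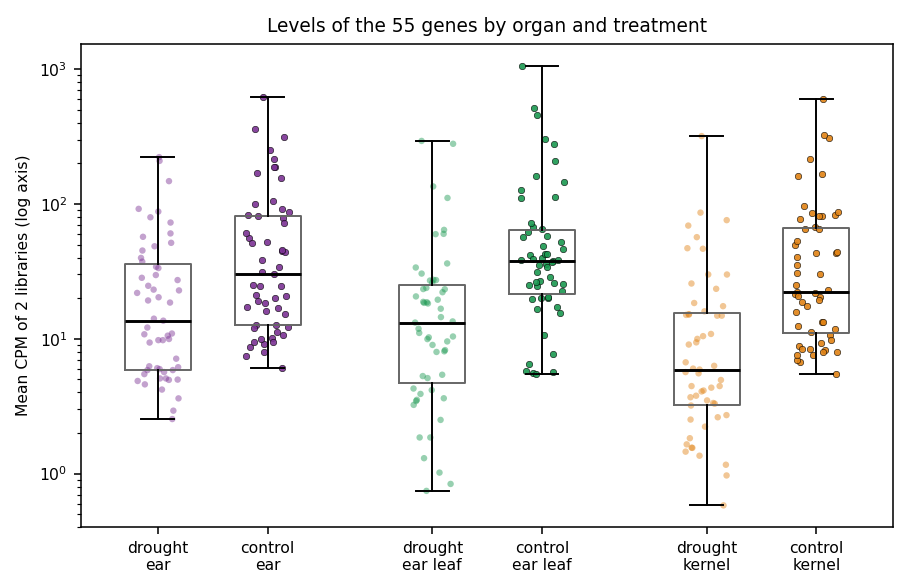
Mean CPM of 2 libraries for each of the 55 members, by organ, with drought to the left of control, on a log axis. Boxes show the quartiles and the median and whiskers the full range. The drought medians are 13.6, 13.2 and 5.91 CPM in ears, ear leaves and kernels, against control medians of 30.1, 37.6 and 22.3 CPM.

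All 55 members passed the filter on low counts and entered the fit across 26089 genes (edgeR quasi-likelihood test, adjusted p under 0.001 and at least 2-fold). By these criteria 36 members were lower in ears, where 3.29% of all tested genes were, 53 in ear leaves, where 9.19% were, and 42 in kernels, where 13.5% were. The rule used the same contrast, so nothing is read from these counts. The fit put 27 members past the criteria in all 3 organs, 22 in 2 organs and 6 in 1 organ. The share of all tested genes was not counted for these numbers of organs, so they too are a description. The median log2 fold change of the members was -1.13 in ears, -1.66 in ear leaves and -1.47 in kernels, beside -0.01, -0.03 and 0.00 over all tested genes.

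The scaling of the libraries decided whether the ear leaf or the kernel had the larger median fall. The fit scaled libraries with TMM factors, which set the typical gene to no change, whereas CPM divides by the total count alone. Without the factors the median log2 fold change of the members was -1.04 in ears, -1.33 in ear leaves and -1.67 in kernels, because dropping the factors moved the median of all genes by 0.31 in ear leaves and by -0.20 in kernels. The fold limit of the rule, set on CPM, was therefore stricter in ear leaves and more lenient in kernels on the scale of the fit.

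Among the members with a known name, RNRS1 of DNA synthesis and kin11 of cell division fell more in ear leaves and in kernels than in ears. GRMZM2G060163 (RNRS1) encodes a small subunit of ribonucleotide reductase, the enzyme that makes deoxyribonucleotides for DNA synthesis, and is the closest match of Arabidopsis TSO2. It had 82.1 and 77.2 CPM in drought ears against 212 and 216 CPM in control ears, 5.43 and 5.40 CPM in drought ear leaves against 40.3 and 38.6 CPM in control ear leaves, and 16.6 and 15.3 CPM in drought kernels against 84.1 and 80.2 CPM in control kernels. The rule required all drought libraries to lie below their controls. The ear held most RNRS1 reads under both treatments. The estimated counts of RNRS1 were whole numbers in 0 of the 12 libraries, so they may hold reads shared with similar genes. Its log2 fold change was -1.52 ± 0.08 (SE, n = 2 libraries per group) in ears, -3.19 ± 0.18 in ear leaves and -2.16 ± 0.12 in kernels. The ear leaf exceeded the ear in this fall by 1.67 on the log2 scale (difference -1.67 ± 0.20, edgeR adjusted p = 3.4e-08). The kernel also fell more than the ear (-0.64 ± 0.14, edgeR adjusted p = 0.00074) and less than the ear leaf (1.03 ± 0.22, edgeR adjusted p = 0.00019), although the last of these missed the threshold without TMM factors (adjusted p = 0.063).

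GRMZM2G436981 (kin11, also krp11 and VSK1) is a kinesin whose closest Arabidopsis match, ATK5, is a motor of the mitotic spindle. It had 42.4 and 47.9 CPM in drought ears against 103 and 106 CPM in control ears, 3.67 and 4.13 CPM in drought ear leaves against 27.0 and 25.1 CPM in control ear leaves, and 2.72 and 2.52 CPM in drought kernels against 18.3 and 24.9 CPM in control kernels. The rule set drought and control apart in each organ. By CPM, the drought ear kept more kinesin reads than the control kernel. The fall was larger in ear leaves than in ears (difference of log2 fold changes -1.78 ± 0.26, edgeR adjusted p = 1.1e-06) and larger in kernels than in ears (-1.53 ± 0.30, edgeR adjusted p = 5.9e-05). Between kernel and ear leaf the difference was 0.25 ± 0.37 (edgeR adjusted p = 0.63). In RefSeq kin11 overlaps the PsbQ-like member GRMZM2G436986, described below, so some reads counted for kin11 may belong to that gene.

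The relatives of these genes did not all follow them. Of 5 ribonucleotide reductase genes named in RefSeq, 2 were past the criteria as lower in ears, 2 in ear leaves and 3 in kernels, and 0 were past them as higher by edgeR or DESeq2 (at an unadjusted p under 0.05, 1 was higher in ears, 0 in ear leaves and 1 in kernels). RNRS2 (GRMZM2G155546) had log2 fold changes of -0.51 in ears, -1.68 in ear leaves and -0.57 in kernels, and only the ear leaf value passed. RNRL1 (GRMZM2G304378) had higher levels under drought in ears (0.43, edgeR adjusted p = 0.00018) and in kernels (0.43, edgeR adjusted p = 0.00011), below the fold of the criteria. RNRS3 (GRMZM2G323679) had -1.09 in ears and -2.46 in kernels, both past the criteria, and 0.81 in ear leaves, which did not pass. Of 7 genes named as kinesin-related proteins (krp), 4 were lower in ears, 2 in ear leaves and 5 in kernels, with medians of -1.09, -0.04 and -1.61. Both of those lists were drawn up after the members were known, as were the lists of tonoplast, bHLH and photosystem II genes given below. The ribonucleotide reductase and krp counts include the members RNRS1 and kin11, which the rule picked for a fall in every organ. Among 27 core histone genes named in the supplementary tables of the study or RefSeq, 26 were lower in ears, 22 in kernels and 0 in ear leaves by edgeR or DESeq2 (5 at an unadjusted p under 0.05), and 1 was higher in ear leaves and 1 in kernels. No histone gene was a member, and the study chose its tables on these same samples.

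Members with a role in the chloroplast were read most in the control ear leaf. GRMZM2G436986, whose Arabidopsis matches are the PsbQ-like proteins PQL1 and PQL2 of the chloroplast NDH complex, had 10.9 CPM in both drought ears against 23.0 and 26.5 CPM in control ears, 9.35 and 9.77 CPM in drought ear leaves against 50.7 and 46.1 CPM in control ear leaves, and 1.55 and 1.16 CPM in drought kernels against 9.14 and 7.61 CPM in control kernels. By CPM its drought ear leaves thus held about as many reads as its drought ears, while the control ear leaf lay 1.81 ± 0.14 above the control ear on the log2 scale (edgeR adjusted p = 3.3e-12). In RefSeq this gene overlaps the kinesin gene GRMZM2G436981, and whether the counting used strand is not given in the sources used here, so reads that belong to one and were counted for the other cannot be told apart. Among the 45 members with a single RefSeq entry, no others lay within 10 genes of each other. The remaining members were not placed.

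GRMZM2G128665, named ATP4 in RefSeq and in maize a chloroplast RNA-binding protein needed for the ATP synthase gene atpB, had 4.89 and 7.42 CPM in drought ears against 17.2 and 13.4 CPM in control ears, 9.54 and 6.95 CPM in drought ear leaves against 59.5 and 57.2 CPM in control ear leaves, and 4.47 and 3.10 CPM in drought kernels against 8.57 and 8.18 CPM in control kernels. Its fall in ear leaves exceeded that in kernels (2.22 ± 0.35 for kernel minus ear leaf, edgeR adjusted p = 1.4e-05) and that in ears (-1.76 ± 0.31 for ear leaf minus ear, edgeR adjusted p = 5.7e-05). ATP4 was singled out for its RefSeq name after its values were seen.

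Genes named for the photosystems were mostly not lowered in every organ. Of 57 tested genes that the supplementary tables or RefSeq name as light-harvesting or photosystem proteins, 56 were lower and 1 higher in ear leaves, and none was a member. In the ear 25 were higher and 0 lower by edgeR or DESeq2 (1 lower at an unadjusted p under 0.05), and in kernels 12 were higher and 4 lower. The study also lists the PsbQ-like member GRMZM2G436986 under its heading for photosystem II. Of the 25 tested genes with that heading, 1 was lower in ears (this member) and 7 higher, 24 were lower and 1 higher in ear leaves, and 3 were lower and 7 higher in kernels. The study chose its tables on these samples, so they are no independent evidence of a direction.

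Among the transcription factors, HAT14 and the MYR1 pair showed how different the size could be. GRMZM2G168002, whose Arabidopsis match is the MYB-related protein MYR1, had 42.1 and 37.5 CPM in drought ears against 91.4 and 90.9 CPM in control ears, 5.14 and 3.19 CPM in drought ear leaves against 27.3 and 25.7 CPM in control ear leaves, and 15.0 and 15.1 CPM in drought kernels against 45.7 and 42.8 CPM in control kernels. The fall was larger in ear leaves than in ears (-1.72 ± 0.25, edgeR adjusted p = 1.1e-06) and than in kernels (1.65 ± 0.27 for kernel minus ear leaf, edgeR adjusted p = 4.8e-06). GRMZM2G117193, which RefSeq names MYR1, had 20.3 and 25.4 CPM in drought ears against 46.2 and 44.9 CPM in control ears, 8.07 and 8.08 CPM in drought ear leaves against 19.5 and 14.8 CPM in control ear leaves, and 11.3 and 10.5 CPM in drought kernels against 23.8 and 20.7 CPM in control kernels. It was one of the 3 members with the most even fall, and no pair of organs passed the test of a difference (edgeR adjusted p = 0.064, 0.42 and 0.27 for kernel minus ear leaf, kernel minus ear and ear leaf minus ear).

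GRMZM2G134260, matched to the Arabidopsis homeodomain-leucine zipper protein HAT14, had 18.0 and 20.5 CPM in drought ears against 33.8 and 34.5 CPM in control ears, 0.550 and 1.13 CPM in drought ear leaves against 5.68 and 5.25 CPM in control ear leaves, and 13.6 and 16.7 CPM in drought kernels against 85.7 and 76.1 CPM in control kernels. The ear leaf values rested on 3 and 6 counts under drought against 31 and 18 counts in controls, which leaves the size of that fall loose (log2 fold change -3.04 ± 0.49). Its control kernel exceeded the control ear leaf by 3.02 ± 0.21 (edgeR adjusted p = 9.3e-15) and the control ear by 1.23 ± 0.12 (edgeR adjusted p = 7.2e-10). HAT14 was thus one of the 3 members whose control kernel passed the test against both other organs with TMM factors (5 without them).

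The basic helix-loop-helix (bHLH) family had 2 members. GRMZM2G004356, RefSeq bHLH159 and a match of Arabidopsis UNE12, had 5.47 and 4.49 CPM in drought ears against 11.7 and 9.78 CPM in control ears, 3.67 and 4.88 CPM in drought ear leaves against 17.8 and 15.5 CPM in control ear leaves, and 3.11 and 2.32 CPM in drought kernels against 10.7 and 13.1 CPM in control kernels. GRMZM2G030123 had 16.0 and 12.2 CPM in drought ears against 28.5 and 31.6 CPM in control ears, 11.5 and 9.02 CPM in drought ear leaves against 21.8 and 18.2 CPM in control ear leaves, and 2.72 and 2.32 CPM in drought kernels against 14.3 and 12.6 CPM in control kernels. For bHLH159 the fall was larger in ear leaves than in ears with TMM factors (-1.11 ± 0.37, edgeR adjusted p = 0.02) and did not pass without them (adjusted p = 0.068). With the factors the call was lost when control ear 2, control ear leaf 1, drought ear 1 or drought ear leaf 1 was left out (adjusted p = 0.065, 0.0887, 0.108 and 0.0965). Its kernel against its ear did not pass with the factors (-0.72 ± 0.41, edgeR adjusted p = 0.16) and passed without them (-1.02, adjusted p = 0.042), and kernel against ear leaf passed on neither scale (adjusted p = 0.47 with and 0.79 without). For GRMZM2G030123 the larger fall was in kernels, against the ear (-1.01 ± 0.36, edgeR adjusted p = 0.022) and against the ear leaf (-0.89 ± 0.37, edgeR adjusted p = 0.047). Both of those calls were lost without any 1 of several libraries, with adjusted p up to 0.117 without drought kernel 2 for the ear and 0.175 without drought kernel 2 for the ear leaf. Of 33 tested genes with a bHLH name in RefSeq, 3 were lower in ears, 4 in ear leaves and 8 in kernels, against 0, 2 and 3 that were higher (the 0 also by DESeq2, and 3 at an unadjusted p under 0.05). These counts include the member bHLH159 as lower in each organ.

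The 3 other enzyme genes with a known name fell more in kernels than in ears. GRMZM2G073814, a match of Arabidopsis EDA9, encodes a phosphoglycerate dehydrogenase, the first enzyme of serine synthesis from glycolysis. It had 76.0 and 69.5 CPM in drought ears against 152 and 161 CPM in control ears, 24.6 and 23.1 CPM in drought ear leaves against 42.9 and 49.6 CPM in control ear leaves, and 71.1 and 80.6 CPM in drought kernels against 352 and 297 CPM in control kernels. By CPM, drought kernels and drought ears thus held similar levels, whereas the control kernel lay 1.04 ± 0.09 above the control ear on the log2 scale (edgeR adjusted p = 8.4e-11) and 1.97 ± 0.11 above the control ear leaf (edgeR adjusted p = 9.5e-16). The fall was larger in kernels than in ears (-0.70 ± 0.14, edgeR adjusted p = 0.00017) and than in ear leaves (-0.62 ± 0.16, edgeR adjusted p = 0.0029). Its ID matches more than 1 RefSeq gene, so its counts may come from more than 1 copy.

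GRMZM2G173413 encodes an allantoinase, which opens the ring of allantoin in the breakdown of purines. It had 10.9 and 8.6 CPM in drought ears against 24.9 and 24.3 CPM in control ears, 8.62 and 9.39 CPM in drought ear leaves against 41.7 and 42.6 CPM in control ear leaves, and 3.30 and 5.62 CPM in drought kernels against 28.0 and 33.1 CPM in control kernels. The ear leaf and the kernel both fell more than the ear (differences of -1.14 ± 0.26 and -1.14 ± 0.30, edgeR adjusted p = 0.00095 and 0.0025), and the kernel difference had an adjusted p of 0.0508 without drought kernel 1. The difference between kernel and ear leaf was -0.01 ± 0.30. GRMZM5G856653, a match of the glucose-phosphorylating enzyme and glucose sensor HXK1 of Arabidopsis, had a smaller fall, with 50.4 and 52.6 CPM in drought ears against 90.7 and 83.6 CPM in control ears, 16.3 and 17.1 CPM in drought ear leaves against 25.9 and 31.8 CPM in control ear leaves, and 15.9 and 19.0 CPM in drought kernels against 50.1 and 55.3 CPM in control kernels. It lay just inside the rule in ear leaves, at 1.51-fold. Its kernel fell more than its ear (-0.54 ± 0.16, edgeR adjusted p = 0.0086), with an adjusted p of 0.0931 without drought kernel 1.

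**Figure D3:**
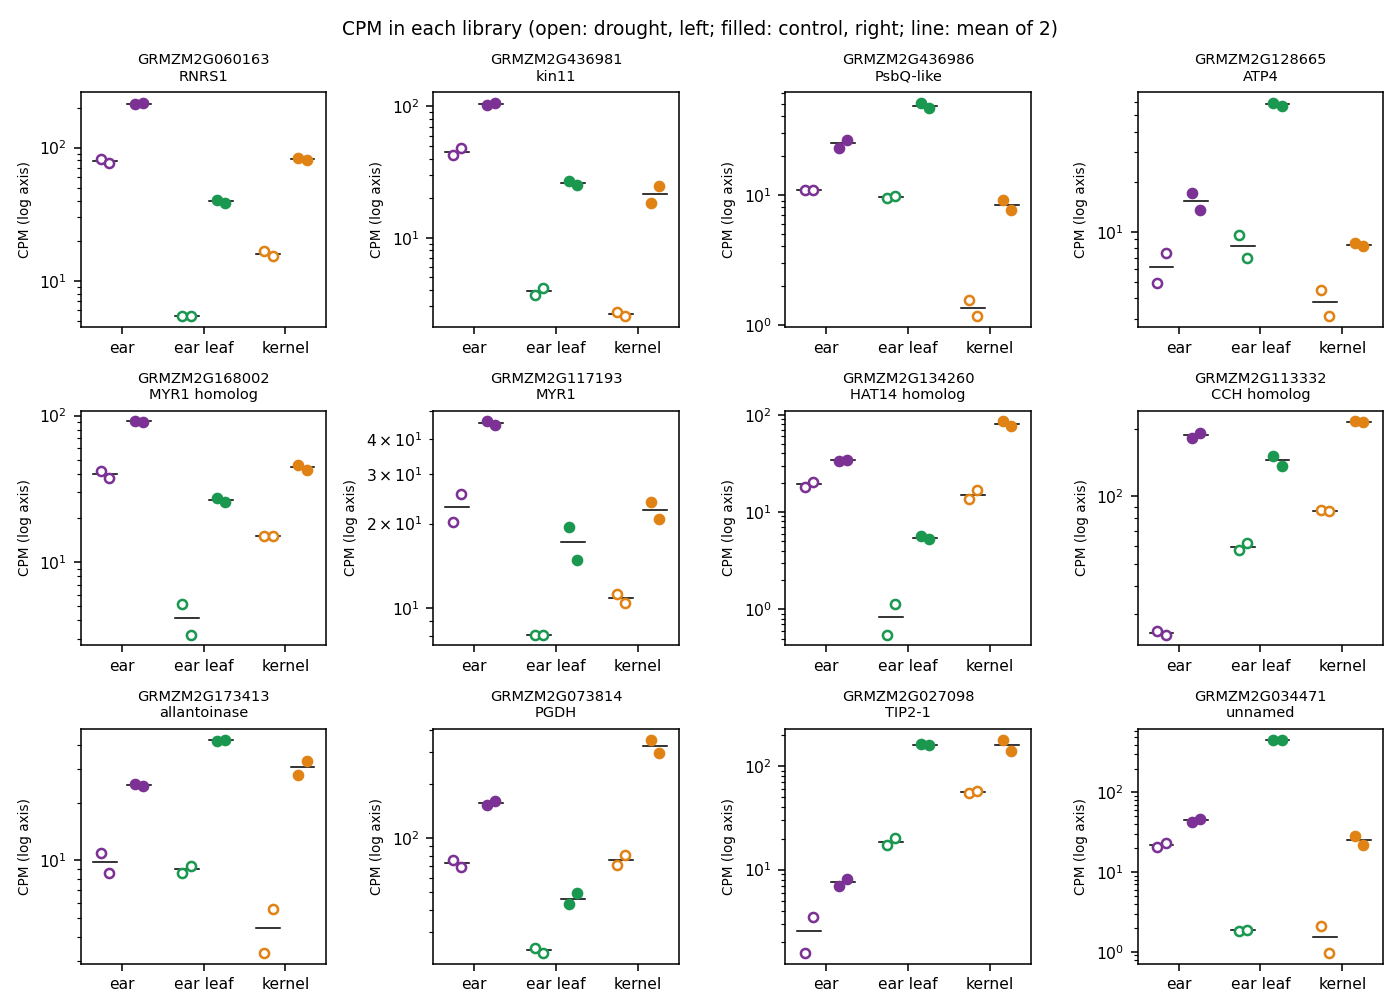
CPM of 12 members in each library, by organ, on a log axis whose range differs between panels, with open points for drought to the left of filled points for control and a line at the mean of 2 libraries. The rule required both drought points to lie below both control points in every panel and organ. RNRS1 and kin11 are highest in ears, the PsbQ-like gene and ATP4 in the control ear leaf, and HAT14 and the phosphoglycerate dehydrogenase gene (PGDH) in the control kernel.

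The copper chaperone gene was the member that fell most in ears. GRMZM2G113332, a match of Arabidopsis CCH, which carries copper within the cell, had 25.2 and 24.2 CPM in drought ears against 182 and 191 CPM in control ears, 57.6 and 61.8 CPM in drought ear leaves against 152 and 137 CPM in control ear leaves, and 86.6 and 85.8 CPM in drought kernels against 216 and 214 CPM in control kernels. Mean control CPM thus lay within 1.49-fold of each other over the organs, while the drought levels lay further apart. The log2 fold change was -3.01 ± 0.10 in ears, -1.62 ± 0.09 in ear leaves and -1.12 ± 0.08 in kernels. The ear fell more than the kernel (1.89 ± 0.13 for kernel minus ear, edgeR adjusted p = 3.9e-12) and more than the ear leaf (1.39 ± 0.14 for ear leaf minus ear, edgeR adjusted p = 3.6e-09), also without TMM factors. The difference between kernel and ear leaf passed with TMM factors (0.50 ± 0.12, edgeR adjusted p = 0.0012) and was -0.04 without them (adjusted p = 0.84).

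GRMZM2G027098 (TIP2-1, also ZmTIP2;1) encodes a water channel of the vacuole membrane and was read least in ears. It had 1.56 and 3.52 CPM in drought ears against 6.98 and 8.05 CPM in control ears, 17.2 and 20.1 CPM in drought ear leaves against 164 and 160 CPM in control ear leaves, and 55.4 and 58.1 CPM in drought kernels against 182 and 140 CPM in control kernels. The drought kernel kept more reads than the drought ear leaf, and the fall in ear leaves exceeded that in kernels (2.15 ± 0.19 for kernel minus ear leaf, edgeR adjusted p = 1.7e-10). Of 7 tested tonoplast intrinsic protein genes, 2 were lower in ears, 2 in ear leaves and 3 in kernels, and 3 were higher in kernels. TIP2-1 itself is counted among the lower genes in each organ. TIP4-1 (GRMZM2G103945) had log2 fold changes of -0.05 in ears, -1.44 in ear leaves and 1.87 in kernels, so not all of the family moved one way.

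Most of the remaining members carry no name in the study's tables or RefSeq, and they include the extreme values. Of the 55, 11 have an Arabidopsis match in the supplementary tables, 5 more have a gene name in RefSeq and 39 have neither. GRMZM2G034471 had 20.7 and 23.1 CPM in drought ears against 43.0 and 46.2 CPM in control ears, 1.83 and 1.88 CPM in drought ear leaves against 453 and 462 CPM in control ear leaves, and 2.14 and 0.968 CPM in drought kernels against 28.6 and 21.9 CPM in control kernels. The drought ear leaves held 10 counts each, against 2466 and 1586 counts in control ear leaves. The log2 fold change was -8.27 ± 0.31 in ear leaves, -3.80 ± 0.35 in kernels and -1.12 ± 0.13 in ears. Under drought the ear thus held the most reads of this gene, whereas in controls the ear leaf did.

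A fall concentrated in ear leaves was also present in GRMZM2G031613 and GRMZM2G339435. GRMZM2G031613 had 5.67 and 4.49 CPM in drought ears against 11.9 and 10.5 CPM in control ears, 1.28 and 0.752 CPM in drought ear leaves against 28.1 and 21.0 CPM in control ear leaves, and 1.55 and 1.74 CPM in drought kernels against 10.5 and 8.18 CPM in control kernels. GRMZM2G339435 had 95.0 and 88.9 CPM in drought ears against 162 and 176 CPM in control ears, 3.48 and 3.57 CPM in drought ear leaves against 38.9 and 37.6 CPM in control ear leaves, and 44.4 and 48.6 CPM in drought kernels against 91.1 and 78.9 CPM in control kernels. In both, the drought ear leaf was the lowest group of the 6. For GRMZM2G339435 the difference between kernel and ear did not pass the test (0.31 ± 0.14 for kernel minus ear, edgeR adjusted p = 0.074), and the ear leaf fell more than either.

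GRMZM2G112456, GRMZM2G047055 and AC208897.3 fell most in kernels. GRMZM2G112456 had 2.45 and 1.21 CPM in drought kernels against 47.3 and 39.3 CPM in control kernels, the largest kernel fall among the members (log2 fold change -4.34 ± 0.36). Its larger fall in kernels than in ear leaves (edgeR adjusted p = 0.011) was lost without drought ear leaf 2 (adjusted p = 0.108) or drought kernel 2 (adjusted p = 0.0618). In the ear it had 3.79 and 6.12 CPM under drought against 15.7 and 18.8 CPM in controls, and in ear leaves 1.10 and 1.5 CPM under drought against 5.38 and 5.83 CPM in controls. GRMZM2G047055 had 27.7 and 32.3 CPM in drought kernels against 304 and 317 CPM in control kernels, 202 and 215 CPM in drought ears against 360 and 357 CPM in control ears, and 41.7 and 30.7 CPM in drought ear leaves against 123 and 129 CPM in control ear leaves. Control ear and control kernel thus held like levels of GRMZM2G047055, and under drought the ear held far more than the kernel. AC208897.3 is an ID cut at the clone name, which joins transcripts that may belong to more than 1 gene, so its values may not be those of a single gene. It had 1.36 and 1.75 CPM in drought kernels against 11.2 and 13.7 CPM in control kernels, and 284 and 303 CPM in drought ear leaves against 510 and 526 CPM in control ear leaves. In the ear it had 34.8 and 32.0 CPM under drought against 55.1 and 56.3 CPM in controls.

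GRMZM2G160064 had the largest fall in its weakest organ, and GRMZM2G469380 and GRMZM2G305027 the highest control levels per length. GRMZM2G160064 had 23.5 and 17.2 CPM in drought ears against 83.4 and 82.4 CPM in control ears, 2.53 and 3.94 CPM in drought ear leaves against 25.9 and 28.2 CPM in control ear leaves, and 4.76 and 3.93 CPM in drought kernels against 22.6 and 18.5 CPM in control kernels, so that every organ fell at least 3.51-fold. GRMZM2G469380 had 57.8 and 63.1 CPM in drought ears against 255 and 252 CPM in control ears, 273 and 286 CPM in drought ear leaves against 1060 and 1054 CPM in control ear leaves, and 316 and 322 CPM in drought kernels against 637 and 571 CPM in control kernels. Its kernel fell less than its ear leaf (1.53 ± 0.09, edgeR adjusted p = 7.1e-14) and its ear (1.44 ± 0.10, edgeR adjusted p = 3.7e-12). In deposited FPKM, which divide by gene length, GRMZM2G469380 led the members in ear leaves with a mean of 174 under drought against 658 in controls, and in kernels with 199 against 377. GRMZM2G305027 led in ears with a mean FPKM of 204 under drought against 565 in controls.

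GRMZM2G305027 and GRMZM2G432642 were read most in ears. GRMZM2G305027 had 226 and 219 CPM in drought ears against 615 and 618 CPM in control ears, 58.4 and 70.0 CPM in drought ear leaves against 118 and 106 CPM in control ear leaves, and 68.1 and 70.1 CPM in drought kernels against 171 and 165 CPM in control kernels. GRMZM2G432642 had 148 and 147 CPM in drought ears against 308 and 318 CPM in control ears, 4.4 and 5.82 CPM in drought ear leaves against 9.73 and 11.7 CPM in control ear leaves, and 31.1 and 28.9 CPM in drought kernels against 98.1 and 77.3 CPM in control kernels. The control ear leaf of GRMZM2G432642 lay 4.06 below the control ear on the log2 scale (ear leaf minus ear -4.06 ± 0.16, edgeR adjusted p = 2e-20), and the difference of the falls passed the test in no pair of organs with TMM factors (edgeR adjusted p = 0.96, 0.4 and 0.6 for kernel minus ear leaf, kernel minus ear and ear leaf minus ear). Without the factors its fall was larger in kernels than in ears (-0.46, adjusted p = 0.01). GRMZM6G300210, which RefSeq names ppp1 and which was singled out for that name after its values were seen, was the reverse, with 135 CPM in both drought ear leaves against 307 and 301 CPM in control ear leaves and 23.8 CPM or less in every ear and kernel library.

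The other members with the most even fall carry no name. GRMZM2G103526 had 23.6 and 22.7 CPM in drought ears against 45.3 and 42.2 CPM in control ears, 10.5 and 11.6 CPM in drought ear leaves against 25.1 and 24.8 CPM in control ear leaves, and 16.1 and 13.6 CPM in drought kernels against 43.8 and 36.9 CPM in control kernels. GRMZM2G111309 had 6.06 and 5.67 CPM in drought ears against 9.62 and 10.7 CPM in control ears, 18.9 and 18.0 CPM in drought ear leaves against 36.7 and 39.9 CPM in control ear leaves, and 7.77 and 5.62 CPM in drought kernels against 13.5 and 13.1 CPM in control kernels. No pair of organs passed the test of a difference for either gene with TMM factors, with adjusted p of 0.068 and above for GRMZM2G103526 and of 0.067 and above for GRMZM2G111309. Without the factors, the fall of GRMZM2G103526 was larger in kernels than in ears (-0.53, adjusted p = 0.031).

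The other 25 members were named by no part of the choice. Their control levels ran over 6.07 to 189 CPM in ears, 5.63 to 278 CPM in ear leaves and 5.52 to 96.5 CPM in kernels. Of these, 15 had their strongest fall in kernels (2.09-fold to 8.10-fold), 8 in ear leaves (2.23-fold to 8.78-fold) and 2 in ears (2.6-fold and 2.67-fold). GRMZM2G171406, with a fall of 8.78-fold in ear leaves, and GRMZM2G359298, with 8.10-fold in kernels, mark the ends and were chosen with their values known.

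The control level of the members differed between organs in most members. The highest mean control CPM of a member was a median of 4.43 times its lowest (1.17 to 41.5), and the highest lay in ear leaves in 26 members, in ears in 20 and in kernels in 9. With TMM factors, 28 members were higher in the control ear leaf than in the control ear, where 26.1% of all tested genes were, and 10 were lower, where 22.5% were. In the control kernel against the control ear leaf, 28 members were lower (23.1% of all tested genes) and 5 higher (21.8%). Between control kernel and control ear, 16 members were lower in kernels (9.36%) and 9 higher (14.6%). The ear leaf exceeded both other organs in 25 members, the ear in 9 and the kernel in 3, and 11 members differed between no pair of control organs. The counts of the last sentence were made over the members alone, with no share over all tested genes, so they are a description. These contrasts share their control libraries, and the rule left out every gene below 5 CPM in any control organ.

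**Figure D4:**
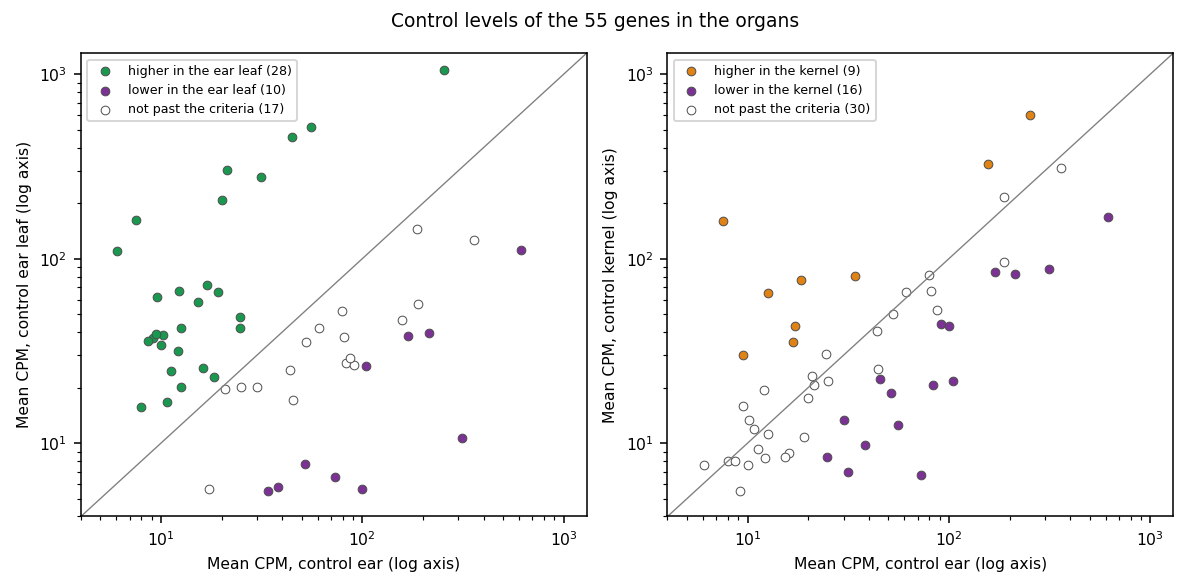
Mean CPM of the 55 members in the control ear leaf (left panel) and the control kernel (right panel) against the control ear, on log axes with the line of equal CPM. Colours mark members past the criteria of the edgeR fit, which used TMM factors, so the typical gene in ear leaves lies below the line. In the left panel 28 members are higher and 10 lower in ear leaves, and in the right panel 9 are higher and 16 lower in kernels.

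The scaling bore heavily on the ear leaf in these counts. The TMM factors of the control ear leaves were 0.648 and 0.670, beside 1.17 to 1.21 in the control kernels and ears, and without the factors the median log2 difference of control ear leaf minus control ear over all genes moved by -0.84. On that scale 21 members were higher and 19 lower in ear leaves than in ears, and 19 were lower and 11 higher in kernels than in ear leaves. Control kernel against control ear changed little, with 15 lower and 9 higher. Shares over all tested genes were not counted without the factors.

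The fall under drought differed between organs for 44 members and did not pass the test in any pair for 11. The share of all tested genes with a difference in any pair was not counted, so the 44 are not read as a trait of the members. The rule asked for the same CPM fold in each organ, which on the scale with TMM factors was stricter in ear leaves and more lenient in kernels and so bears on the counts for this pair, and by asking for a fall in every organ it left out genes with opposite responses. With TMM factors the fall was larger in kernels than in ears for 25 members, where 20.3% of all tested genes had the more negative effect in kernels, and larger in ears for 3 (5 without control kernel 1), where 18.9% did (edgeR test of the difference, adjusted p under 0.05). Between ear leaf and ear, 25 members fell more in ear leaves (19.7% of all tested genes) and 2 more in ears (16.2%; 1 without drought ear leaf 2). Between kernel and ear leaf, 14 members fell more in kernels (20.3%), 19 more in ear leaves (25.5%), and 22 did not pass. The fall exceeded that in both other organs in ear leaves for 15 members, in kernels for 13 and in ears for 2, which were the CCH match and GRMZM2G305027. No share over all tested genes was counted for these either. For GRMZM2G305027 the larger fall in ears than in ear leaves had an adjusted p of 0.102 without drought ear leaf 2.

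**Figure D5:**
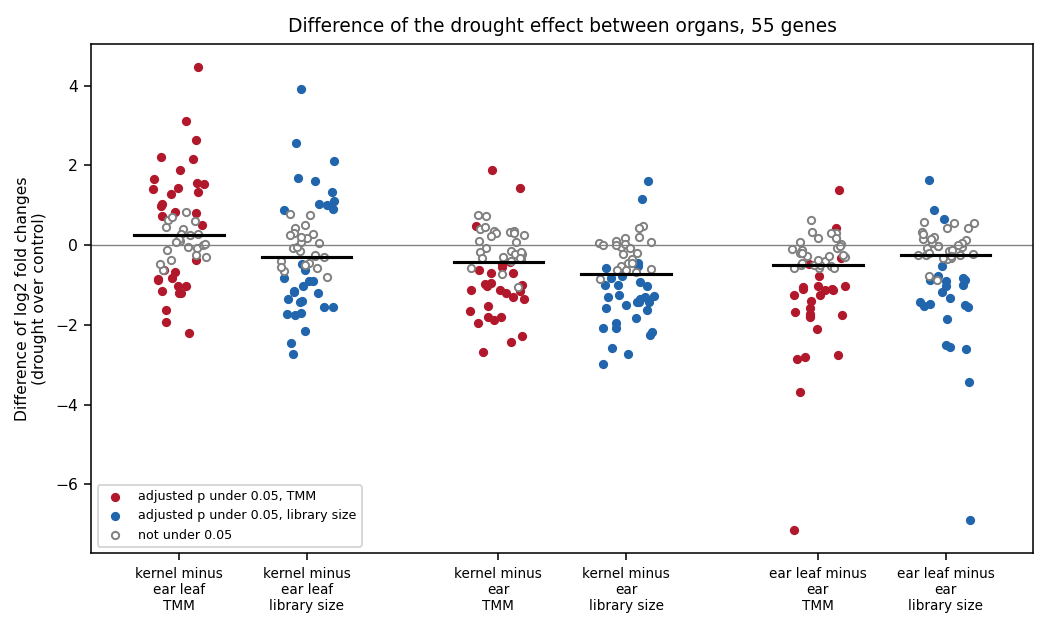
Difference of the log2 fold change under drought between pairs of organs for the 55 members, with TMM factors on the left and library size alone on the right of each pair. Filled points passed an adjusted p of 0.05, open points did not, and bars are medians. For kernel minus ear leaf the median is 0.25 with TMM factors and -0.29 without, and for the other pairs both medians are below 0.

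Without TMM factors, 20 members fell more in kernels than in ear leaves and 11 more in ear leaves, so the order of these organs turned with the scaling. The smaller fall in ears held on both scales. By library size, 30 members fell more in kernels than in ears and 2 more in ears, and 21 fell more in ear leaves than in ears and 3 more in ears. The kernel then exceeded both other organs in 17 members, the ear leaf in 10 and the ear in 1, which was the CCH match. The sign of kernel minus ear leaf differed between the scales in 10 members. Shares over all tested genes were not counted by library size. Over all tested genes, the median of kernel minus ear leaf was -0.48 by library size, beside 0.06 with TMM factors. By library size the median over all tested genes was -0.30 for kernel minus ear and 0.19 for ear leaf minus ear.

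A high control level and a large fall did not always lie in the same organ. Of the 25 members with the highest control level in ear leaves by the test, 7 also fell most there, 5 fell most in kernels and 13 had no organ with the largest fall. Of the 9 highest in ears, 1 (GRMZM2G305027) fell most in ears and 3 in ear leaves. Of the 3 highest in kernels, 2 fell most in kernels. Control libraries enter both measures, so these counts are a description.

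The length and the number of transcripts of the members were compared with other genes as a description. Their median gene length was 1784 bases, beside 1763 bases in the other genes over the floor in all organs. A single transcript was listed for 30 of 55 members (54.5%), beside 38.3% of those other genes and 53.7% of the 387 raised genes. Counts were whole numbers in all libraries, within 0.01, for 27 members (49.1%), beside 38.7% of the other genes over the floor. They were whole in 0 libraries for RNRS1, GRMZM2G047055, GRMZM2G160064 and GRMZM2G305027, among others, so these may hold reads shared with other genes. RefSeq held an entry for 46 members. The 45 with a single entry were spread over all 10 chromosomes, with 2 to 8 members each.

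The raised genes had lower median control levels than the members. Their median control level was 11.2 CPM in ears, 22.3 CPM in ear leaves and 18.8 CPM in kernels, beside 30.1, 37.6 and 22.3 CPM for the members, but the rule set its floor on drought libraries there and on control libraries here. With TMM factors their median absolute log2 fold change was 1.38 in ears, 1.31 in ear leaves and 2.48 in kernels, beside 1.13, 1.66 and 1.47 for the members. By library size the members too had their largest median change in kernels.

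Members just inside the limits of the rule were GRMZM2G173321, GRMZM2G305851 and GRMZM5G856653, with falls of 1.5-fold, 1.51-fold and 1.51-fold in ear leaves. Just outside it were GRMZM2G166218 with 1.49-fold and GRMZM2G122296 with 1.48-fold, both in ears, and GRMZM2G013255 with 1.46-fold in ear leaves. At the floor, GRMZM2G142019 was taken with 5.14 CPM in its lower control ear leaf, and GRMZM2G004128 was left out with 4.76 CPM in its lower control kernel.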

How the data were processed

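Poly(A) RNA of 12 libraries was sequenced on an Illumina HiSeq instrument. The authors deposited, per gene and library, an expected count (a read estimate that need not be whole), a gene length and FPKM. Aligner, counter and annotation are not given in the sources used here, and genes without reads are not listed and were set to 0. CPM is the expected count over the library sum. Expected counts were rounded for edgeR 4.0.16 (glmQLFit, TMM factors, filterByExpr, 1 fit of 6 groups, 6 residual degrees of freedom), with Benjamini-Hochberg adjustment over all 26089 tested genes. The fit was also run on simulated data, whose outcome is not reported here, and no result above rests on that run. Criteria were an adjusted p under 0.001 and a log2 fold change of at least 1, and an adjusted p under 0.05 for differences between organs. Errors after ± are standard errors. Replicates are separate samples by their labels, and their p-values measure only the spread between these samples.

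Alternatives were DESeq2 1.42.0, library size only, no filter, a replicate block, each organ fitted alone, a test of changes beyond 2-fold, other limits of the rule and leaving out each library. Named genes are those with an annotation in the study's tables or a name in a gene list, the 3 highest control levels and 3 largest falls per organ, the 3 largest weakest falls, the 3 most even, the 3 most unequal and the 3 on each side of the fold limit. Members and lists were chosen with earlier results of these data known. RefSeq names come from the Zm-B73-REFERENCE-NAM-5.0 assembly and 46 of 55 members matched. No sequence or coordinate is printed. Of 3 kernel markers, 1 gave a value. The values of 1 named member are not reported here.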

Additional observations from a re-analysis of the deposited data

Results flagged for a closer look

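The difference of the drought effect between organs passed the edgeR test of the difference itself (adjusted p under 0.05) in several members for each pair of organs. For kernel against ear leaf these were 14 members with the larger fall in the kernel and 19 with the larger fall in the ear leaf. For kernel against ear they were 25 and 3, and for ear leaf against ear 25 and 2, with the ear as the smaller number in both. The genes with the largest difference in any pair were GRMZM2G034471 (ear leaf minus ear -7.15, and kernel minus ear leaf 4.47), GRMZM2G031613 (ear leaf minus ear -3.69) and GRMZM2G339435 (kernel minus ear leaf 3.11).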

How the results depend on the processing

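The rule fixed the sign of the members' falls, so only the side of the threshold could change under the alternative fits. Of 720 refitted falls of named genes, 651 kept it, 64 dropped below it and 5 rose past it. The rule took 10 genes with a fold of 2, 167 with a limit laxer than 1.5, 110 with a floor of 1 CPM and 30 with a floor of 10 CPM. With TMM factors it took 97 genes, 46 of them members, and 7 of the 9 lost members missed the fold in kernels. FPKM in place of CPM gave 37 genes, 35 of them members. Leaving out 1 library gave 56 to 72 genes. Tested against a log2 fold change of 1, 5 members passed in ears, 29 in ear leaves and 25 in kernels. No share over all tested genes was counted for that test. Library size alone gave 11 members with a larger fall in ear leaves than in kernels, 11 higher in the control kernel than in the control ear leaf, and 19 lower in the control ear leaf than in the control ear, by construction of the factors.

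Leaving out 1 library gave 25 to 36 members past the criteria in ears, 48 to 53 in ear leaves and 40 to 43 in kernels. It gave 10 to 14 members with a larger fall in kernels than in ear leaves, 18 to 20 the other way, 19 to 25 with a larger fall in kernels than in ears, 3 to 5 the other way, 20 to 26 with a larger fall in ear leaves than in ears, and 1 to 3 the other way. The extremes of the ear counts were 5 without control kernel replicate 1 and 1 without drought ear leaf replicate 2. The control counts ranged from 27 to 28 (kernel below ear leaf), 5 to 7 (kernel above ear leaf), 13 to 18 (kernel below ear), 7 to 9 (kernel above ear), 10 to 12 (ear leaf below ear) and 28 to 28 (ear leaf above ear).

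No sign was seen that replicate numbers paired the samples. Deviations of libraries with the same number had correlations between -0.0096 and 0.0159 over 20821 genes, and the labels do not tie the numbers to a plot. With 2 libraries per group, these correlations cannot exclude a shared plot or plant. With the replicate number as a block within organ, 36 members passed the criteria in ears, 52 in ear leaves and 42 in kernels. The depth limits the lowest values: the lowest member values were 3 counts in a drought ear leaf and 2 counts in a drought kernel.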
